A study of Mus musculus with 2 samples.

Results

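Open chromatin lying between genes, over 1 kb and up to 50 kb from the nearest start site of a protein-coding gene, was described in mouse gastrocnemius, a calf muscle. The peaks of 2 DNase-seq libraries were merged into 63849 regions, of which 32662 held a peak of each library (51.2% of the merged regions). Of these replicated regions, 4816 overlapped no gene body of the GENCODE M21 annotation and had their nearest protein-coding start site over 1 kb and up to 50 kb away. They made up 14.7% of the replicated regions (exact Clopper-Pearson 95% interval 14.4 to 15.1%). All intervals given here cover counting error only. The choice used positions alone, and no peak value entered it.

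The tissue came from 2 male mice of the hybrid strain B6CASTF1/J, a cross of C57BL/6J and CAST/EiJ, aged 36 days; the labels name no other allele and no treatment. Each animal gave 1 library, named replicate 1 and replicate 2, and both form 1 group with no second group to compare. Nuclei were prepared from whole tissue, so each value sums over all cell types of the muscle. A small value from a cell type that is rare cannot be told apart from a small value in every cell.

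DNase I is an enzyme that cuts DNA where no nucleosome covers it, and sites cut often mark regulatory DNA such as promoters, enhancers and insulators. Enhancers in adult muscle are bound by MyoD-family E-box factors and Mef2 proteins, together with factors of general use such as nuclear factor I (NFI) and AP-1. CTCF, a zinc-finger protein, binds insulators and the anchors of chromatin loops. A protein bound to its site shields it from the enzyme and leaves a footprint, a short stretch cut less than its surroundings. Which gene a distant region acts on was not measured, so the nearest coding gene is used below only as a name for its place. Distances and sides below refer to the nearest start site of a protein-coding transcript. The outer end of the annotated gene can lie nearer or farther.

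The DNA of 14 regions is printed here because the results below return to them: the regions with the highest values, the strongest region of several muscle and rhythm gene lists, and the strongest region with a motif inside a footprint. Letters are the plus strand of the GRCm38.p6 reference from RefSeq, 5′ to 3′, cut to the overlap of both libraries' peaks. The reference is C57BL/6J, and alleles of the CAST/EiJ parent are not shown. Capitals mark matches on either strand to the E-boxes CAGCTG (bound by MyoD-family factors) and CACGTG (bound by clock and Usf factors), the GC box GGGCGG of Sp factors, the NFI site TTGGCA, the Ets site CCGGAAG, the cyclic AMP response element TGACGTCA, the AP-1 site TGANTCA, and, by name alone, the CTCF, NRF1 and MEF2 motifs. A match is a run of letters and not a measured binding site. Motifs can overlap, and in the region upstream of Ppara the CTCF match also holds the letters of another E-box, CACCTG.

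Region upstream of Igf2bp3 with the highest strength, chr6:49236441-49236600: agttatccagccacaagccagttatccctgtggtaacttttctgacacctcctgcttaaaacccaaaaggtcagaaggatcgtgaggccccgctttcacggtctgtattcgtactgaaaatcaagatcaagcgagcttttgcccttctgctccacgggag
Region upstream of Pak3 with the highest value of replicate 1, chrX:143482981-143483140: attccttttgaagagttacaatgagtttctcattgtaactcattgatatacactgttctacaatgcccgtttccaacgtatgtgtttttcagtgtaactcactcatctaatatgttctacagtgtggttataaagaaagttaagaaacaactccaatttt
Region downstream of the Tfap4 start site, chr16:4541861-4542080: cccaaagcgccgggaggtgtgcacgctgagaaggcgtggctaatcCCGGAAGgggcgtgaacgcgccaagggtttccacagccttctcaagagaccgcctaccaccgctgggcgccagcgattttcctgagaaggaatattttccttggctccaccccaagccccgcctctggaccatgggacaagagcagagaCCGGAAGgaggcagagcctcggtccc
Region upstream of Zfp395, chr14:65343841-65344020: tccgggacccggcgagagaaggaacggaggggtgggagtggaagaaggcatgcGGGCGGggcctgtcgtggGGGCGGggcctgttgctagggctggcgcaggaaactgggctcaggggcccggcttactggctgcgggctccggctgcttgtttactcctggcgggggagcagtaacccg
Region upstream of Tmpo, chr10:91181741-91181920: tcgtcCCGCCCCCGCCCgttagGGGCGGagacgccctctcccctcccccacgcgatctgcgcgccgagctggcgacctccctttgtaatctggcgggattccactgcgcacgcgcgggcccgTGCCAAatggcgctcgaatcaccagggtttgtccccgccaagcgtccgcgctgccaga
Region upstream of Atp2a1, a fast-fibre gene, chr7:126465741-126465922: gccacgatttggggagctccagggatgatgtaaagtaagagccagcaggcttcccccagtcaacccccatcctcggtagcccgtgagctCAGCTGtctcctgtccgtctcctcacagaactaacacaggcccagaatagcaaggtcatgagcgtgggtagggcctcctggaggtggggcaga
Region downstream of the Myl3 start site, a slow-fibre gene, chr9:110781481-110781680: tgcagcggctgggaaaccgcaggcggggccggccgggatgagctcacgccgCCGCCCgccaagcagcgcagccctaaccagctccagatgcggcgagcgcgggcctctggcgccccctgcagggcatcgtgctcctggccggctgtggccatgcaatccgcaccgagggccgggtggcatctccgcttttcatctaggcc
Region downstream of the Mef2d start site, a muscle regulator, chr3:88178021-88178220: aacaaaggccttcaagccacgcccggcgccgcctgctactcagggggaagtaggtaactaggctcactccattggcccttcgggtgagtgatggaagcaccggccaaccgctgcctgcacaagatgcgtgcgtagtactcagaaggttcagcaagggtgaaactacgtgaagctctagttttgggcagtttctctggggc
Region upstream of Ppara, with a CTCF match in a shared footprint, chr15:85709421-85709620: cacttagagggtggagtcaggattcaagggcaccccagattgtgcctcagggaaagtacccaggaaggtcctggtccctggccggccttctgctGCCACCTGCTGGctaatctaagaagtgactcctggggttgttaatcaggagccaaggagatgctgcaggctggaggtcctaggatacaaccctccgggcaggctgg
Region upstream of Hlf, with 3 CACGTG E-boxes in shared footprints, chr11:90418061-90418240: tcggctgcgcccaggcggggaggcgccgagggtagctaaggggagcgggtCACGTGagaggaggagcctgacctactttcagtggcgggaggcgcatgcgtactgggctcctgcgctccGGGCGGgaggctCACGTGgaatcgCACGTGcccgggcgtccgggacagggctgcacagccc
Region downstream of the Rdh8 start site, with a CTCF match in a shared footprint, chr9:20831021-20831220: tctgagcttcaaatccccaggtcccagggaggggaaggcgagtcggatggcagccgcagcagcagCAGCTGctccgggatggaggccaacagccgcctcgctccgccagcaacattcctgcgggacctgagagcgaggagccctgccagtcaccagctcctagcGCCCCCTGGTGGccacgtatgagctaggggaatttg
Region upstream of Cirbp, with a CAGCTG E-box in a shared footprint, chr10:80165101-80165280: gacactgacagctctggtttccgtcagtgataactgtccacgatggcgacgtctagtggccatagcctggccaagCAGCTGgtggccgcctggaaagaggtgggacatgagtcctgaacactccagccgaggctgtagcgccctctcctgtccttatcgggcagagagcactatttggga
Region upstream of Kcnn1, with an NRF1 match in a shared footprint, chr8:70865671-70865890: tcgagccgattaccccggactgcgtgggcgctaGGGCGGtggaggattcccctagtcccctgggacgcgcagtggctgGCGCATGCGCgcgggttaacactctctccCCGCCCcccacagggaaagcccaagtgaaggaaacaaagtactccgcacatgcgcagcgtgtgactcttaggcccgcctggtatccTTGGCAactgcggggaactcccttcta
Region upstream of Sema3b, with a response element in a shared footprint, chr9:107612741-107612940: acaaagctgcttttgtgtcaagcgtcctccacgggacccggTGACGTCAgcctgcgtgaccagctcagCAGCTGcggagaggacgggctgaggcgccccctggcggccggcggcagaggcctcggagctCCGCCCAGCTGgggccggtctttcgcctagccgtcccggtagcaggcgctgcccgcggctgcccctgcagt

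The labelled tissue was checked on 10 fibre marker genes, of which 9 had a peak within 500 bp of a start site in either library and 7 in both, among them Acta1 and Ckm. A promoter peak in both libraries was common, in 54.2% of all coding genes, so this count is a weak check. Myh4, the myosin of the fastest fibres, had none in either library, and Tnnt3 and Pvalb had none in replicate 2. Such a peak in both libraries was found for 5 of 13 fast-fibre genes, 4 of 11 slow-fibre genes and 5 of 12 neuromuscular junction genes. Liver genes had 0 of 12. Among other cells of muscle, fibroblast and progenitor genes had 10 of 15, smooth muscle and pericyte genes 6 of 10 and Schwann cell genes 5 of 9. Satellite cell genes had 7 of 13, tendon genes 4 of 9, endothelial genes 6 of 14 and adipocyte genes 2 of 8. Erythroid genes had 0 of 9 and macrophage and lymphocyte genes 0 of 14. These counts do not set fibres apart from most other cells of muscle. The shorter peak lists held 50760 peaks in replicate 1 and 49230 in replicate 2. Each peak carries the authors' signal value, whose scaling is not stated, so values were ranked within a library. The strength of a region is the lower of its percentiles in both libraries.

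The intergenic regions were short and of middling value. Their median width was 200 bp, with quartiles of 180 and 245 bp, and together they covered 1.12 Mb. The highest peak value of a region had a median of 2.02 in replicate 1, with a range of 0.222 to 46.2, and a median of 1.59 in replicate 2, with a range of 0.112 to 40.2. These medians stood at the 56.8th percentile of replicate 1 and the 58.3th percentile of replicate 2. Median strength was 49.3 in the intergenic regions, against 35.3 in intergenic regions beyond 50 kb, 44.8 in introns, 53.1 in exons and 78.2 in promoter regions, which lie within 1 kb of a coding start site. At or above the 90th percentile of both libraries stood 117 of the intergenic regions (2.43%, 95% interval 2.01 to 2.91%), against 24.1% of promoter regions, 1.28% of intronic regions and 11.7% of all replicated regions. The ranks of the libraries followed each other with a Spearman rho of 0.745 over the 4816 regions, against 0.917 over 14269 promoter regions. It was 0.724 over intronic regions and 0.730 over intergenic regions beyond 50 kb, close to that of the regions described. The regions of a library share its depth and scaling, so rho is a description.

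**Figure D1:**
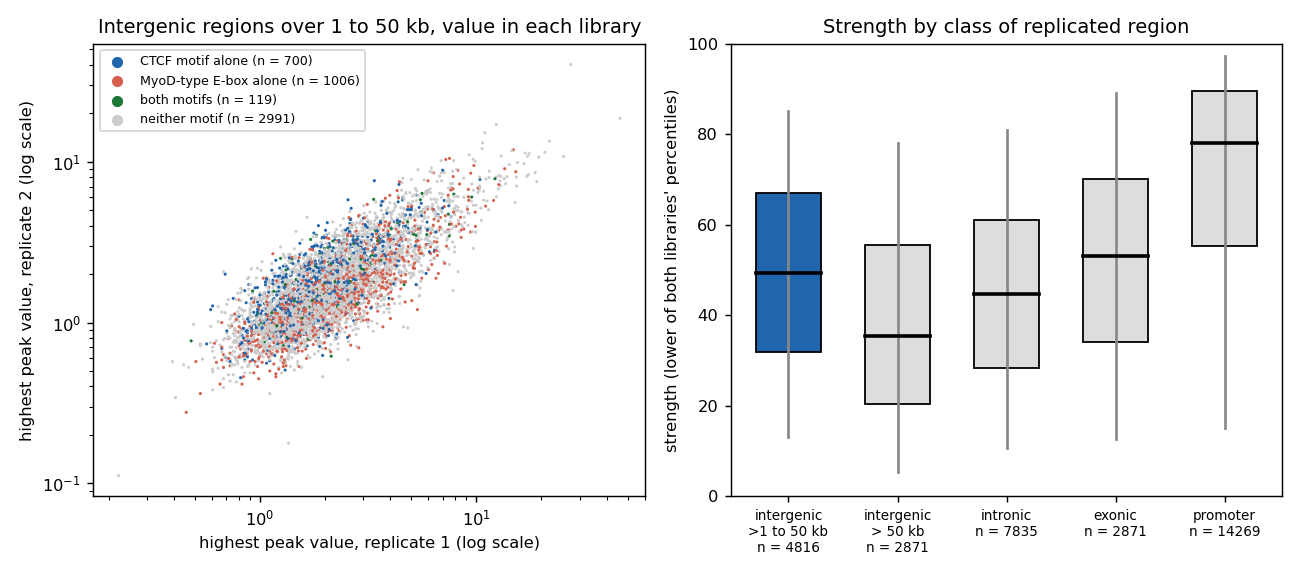
Left, the highest peak value of each intergenic region over 1 to 50 kb from a coding start site in replicate 1 (x, log scale) and replicate 2 (y, log scale), coloured by motif in the central 200 bp. Right, strength (percentile, lower of both libraries) by class of replicated region, with boxes from the first to the third quartile, a line at the median and whiskers from the 5th to the 95th percentile; the median was 49.3 in the intergenic regions over 1 to 50 kb, against 78.2 in promoter regions.

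Base composition separated the regions from their surroundings. The median GC content of the central 200 bp was 54.5% in the regions, against 47.0% in 8756 windows of the same length centred 1 kb to either side and clear of peaks. Repeats, as masked in the reference, took 7.74% of the bases in the regions and 30.97% in the flanking windows. CpG pairs were depleted in both, with a median observed over expected ratio of 0.304 in the regions and 0.186 in the flanks, against 0.822 in promoter regions. A CpG-rich window (ratio of at least 0.6 and GC of at least 50%) was present in 595 of the 4816 regions (12.4%), against 79.3% of promoter regions. Intronic regions and intergenic regions beyond 50 kb were close in median GC content, at 54.5 and 53.5%, and in repeats, at 7.31 and 6.58%. Their median CpG ratios were 0.245 and 0.268.

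The density of open regions depended on distance to the nearest coding start site. Of the intergenic sequence over 1 to 50 kb from a start site, 450 Mb were available, and the regions occurred at 10.7 per Mb, against 2.98 per Mb beyond 50 kb. Density was 13.4 per Mb over 1 to 5 kb, 11.4 over 5 to 10 kb, 10.6 over 10 to 20 kb and 9.65 over 20 to 50 kb. Median strength followed the same order, with 55.9, 55.0, 50.03 and 44.5 in these bins. The distance limits cut through this gradient. Just inside the 1 kb limit lay regions at Asb16 and Bhlhe41, each 1003 bp away, with values of 3.55 and 8.57 in replicate 1 and 1.70 and 4.86 in replicate 2. Just outside it lay regions at Stx3 and Bpi, each 999 bp away, with values of 1.71 and 0.851 in replicate 1 and 1.60 and 0.697 in replicate 2. Just inside the 50 kb limit lay regions at Tmem92 and Ddx3x, with values of 0.752 and 2.60 in replicate 1 and 1.41 and 1.46 in replicate 2. Just outside it lay regions at Cyld and Srsf5, with values of 1.75 and 2.05 in replicate 1 and 1.88 and 1.35 in replicate 2.

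Upstream placement was common among the regions but followed the sequence available. Upstream of their nearest coding start site lay 3349 regions (69.5%, 95% interval 68.2 to 70.8%). Density was 10.51 per Mb over 318 Mb upstream and 11.1 per Mb over 132 Mb downstream. The order of the sides changed with distance. Over 1 to 5 kb the density was 13.9 per Mb upstream and 10.01 downstream, whereas over 10 to 20 kb it was 9.84 upstream and 12.5 downstream.

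**Figure D2:**
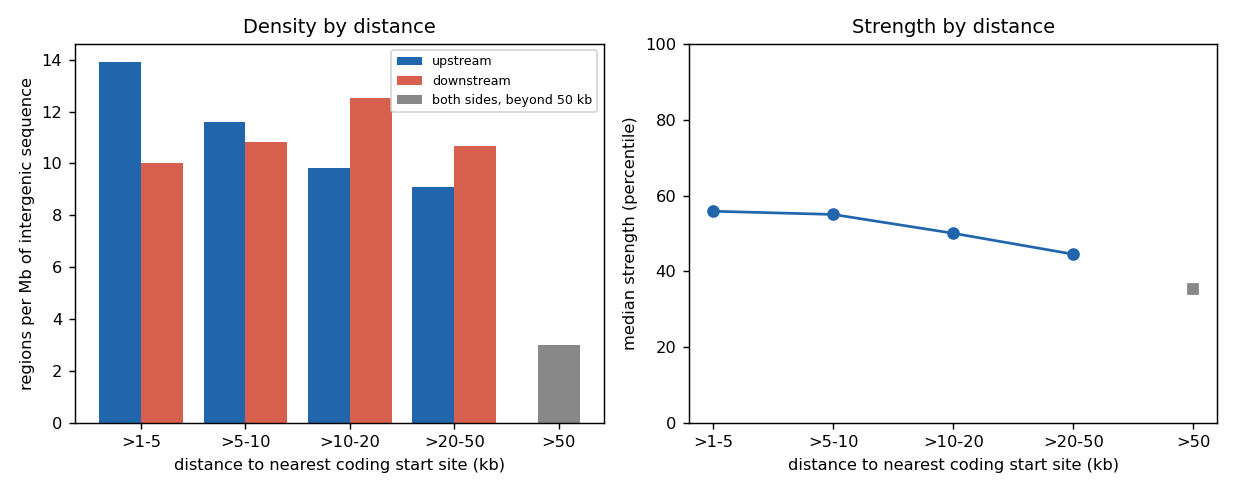
Left, replicated intergenic regions per Mb of intergenic sequence by distance to the nearest coding start site (kb), upstream and downstream, with regions beyond 50 kb in grey. Right, median strength (percentile) in the same bins; density and strength were highest over 1 to 5 kb, at 13.4 per Mb for both sides together and 55.9, and lowest beyond 50 kb, at 2.98 per Mb and 35.3.

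Chromosomes differed widely in density. Chromosome 11 held 502 regions at 21.3 per Mb of such intergenic sequence and chromosome 15 held 252 at 17.2 per Mb, while chromosome 16 held 109 at 8.05 per Mb. The X chromosome, present as a single copy in males, held 83 regions at 2.33 per Mb, with a median strength of 19.5. The Y chromosome held 8 at 0.642 per Mb, with a median strength of 6.23. Copy number and openness cannot be told apart in these values.

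Of the 24 motifs searched, and leaving out the full NFI palindrome, which no flank held, CTCF had the largest ratio of regions to flanks, at 106. It occurred in the central 200 bp of 819 regions (17.0%, 95% interval 15.95 to 18.1%), against 7.67% of all replicated regions and 0.160% of the flanking windows. The share was 11.4% in intronic regions, 10.97% in exonic regions, 9.86% in intergenic regions beyond 50 kb and 1.35% in promoter regions. Regions are not replicates, so these shares are a description. Within the distance range it was 16.2% over 1 to 5 kb, 17.1% over 5 to 10 kb, 20.4% over 10 to 20 kb and 15.3% over 20 to 50 kb. Downstream of the start site 19.1% of regions held it, and upstream 16.1%.

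Muscle and general motifs were also more frequent than in the flanks. The E-box CAGCTG occurred in 1125 regions (23.4%, 95% interval 22.2 to 24.6%), against 9.17% of flanks and 20.2% of all replicated regions. Intronic regions held it in 27.3% and regions beyond 50 kb in 28.6%, both above the regions over 1 to 50 kb, and promoter regions in 12.5%. The NFI site TTGGCA occurred in 16.8% of the regions, against 8.93% of flanks and 14.1% of all replicated regions. It was more frequent in intronic regions, at 20.6%, and in regions beyond 50 kb, at 24.1%, and less so in promoter regions, at 7.42%. The AP-1 site occurred in 9.65% of the regions, against 5.50% of flanks and 6.80% of all replicated regions. The GC box occurred in 16.01% of the regions, against 3.68% of flanks, 36.4% of all replicated regions and 63.2% of promoter regions. The MEF2 motif was rare, in 31 regions (0.644%), against 0.297% of flanks and 0.490% of all replicated regions.

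Several motifs were no more frequent in the regions than beside them. The Tead site GGAATG stood in 10.9% of the regions, against 10.2% of flanks and 9.80% of all replicated regions. The NFY box CCAAT stood in 21.4% of the regions, against 23.2% of flanks and 25.1% of all replicated regions. The E-box CACCTG, a site of Snail-type repressors, stood in 16.4% of the regions, against 15.7% of flanks and 13.3% of all replicated regions. Leaving out matches that overlap a CTCF match, it stood in 668 of the regions (13.9%). The Runx site TGTGGTT was less frequent in the regions, at 3.82% against 5.74% of flanks and 2.92% of all replicated regions. Regions and flanks differ in GC content and repeats, and the part of that difference in the motif shares was not tested.

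The remaining motifs were searched in the same windows. The E-box CACGTG stood in 4.21% of the regions, against 3.11% of flanks and 5.97% of all replicated regions. The Ets site stood in 132 regions (2.74%), against 0.971% of flanks and 7.60% of all replicated regions, and the cyclic AMP response element in 30 (0.623%), against 0.0571% of flanks and 1.72% of all replicated regions. The NRF1 motif stood in 11 regions (0.228%), against 0.0228% of flanks and 0.928% of all replicated regions. These last 3 motifs were most frequent in promoter regions, at 14.2, 3.04 and 1.87%. The Klf site CCACACCC stood in 3.24% of the regions, against 2.02% of flanks and 2.99% of all replicated regions. The Srf box (CArG) stood in 1.16%, against 0.857% of flanks and 0.873% of all replicated regions, and the MEF3 site TCAGGTTTC in 0.436%, against 0.228% of flanks and 0.331% of all replicated regions. The C/ebp site TTGCNNAAT stood in 1.97%, against 1.52% of flanks and 1.52% of all replicated regions, and the steroid receptor element (GRE) in 2.80%, against 2.38% of flanks and 2.08% of all replicated regions. The nuclear receptor sequence AGGTCA stood in 13.2%, against 13.3% of flanks and 10.6% of all replicated regions. The forkhead site TGTTTAC stood in 1.99%, against 2.56% of flanks and 1.91% of all replicated regions, and the PAR bZIP site TTATGTAA (D-box) in 0.519%, against 0.560% of flanks and 0.520% of all replicated regions. The Esrr site TCAAGGTCA stood in 0.208%, against 0.879% of flanks and 0.181% of all replicated regions. The full NFI palindrome stood in 2 of the 4816 regions, against 0 of 8756 flanks and 0.0520% of all replicated regions.

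**Figure D3:**
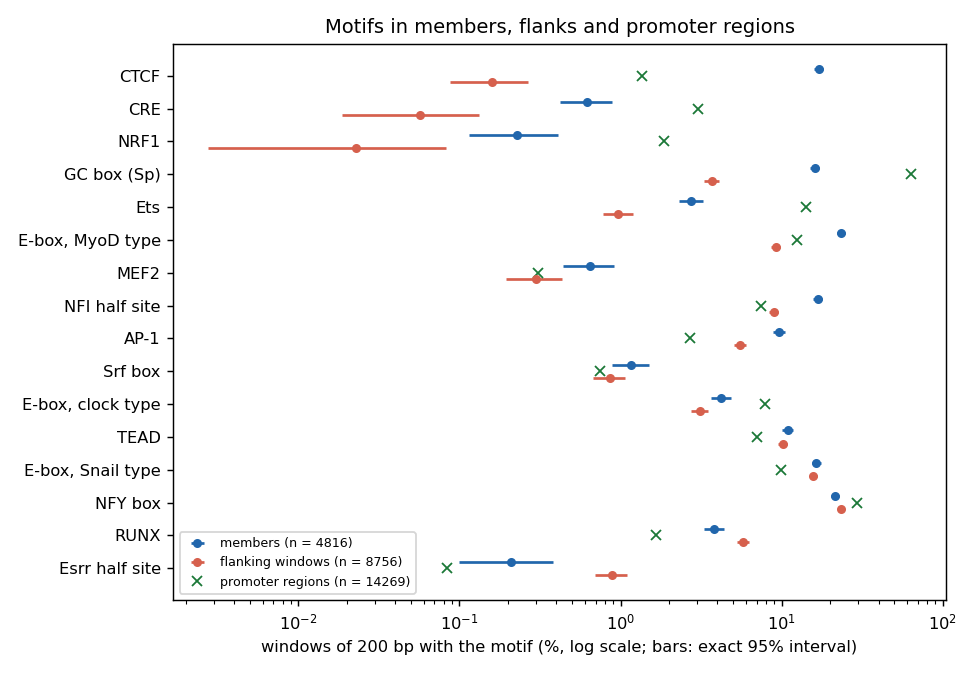
Share of 200 bp windows with each motif drawn (%, log scale) in the intergenic regions over 1 to 50 kb, called members in the plot (blue), in flanking windows clear of peaks (red) and in promoter regions (green crosses), with exact 95% intervals and motifs ordered by the ratio of members to flanks. CTCF stands at 17.0% of members, 0.160% of flanks and 1.35% of promoter regions.

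Most CTCF matches lay in footprints found in both animals. A footprint shared by both libraries, that is, footprints of each overlapping by at least 1 bp, was present in 4311 of the 4816 regions (89.5%, 95% interval 88.6 to 90.4%), against 86.2% of all replicated regions. Each shared footprint spans the joint extent of the overlapping footprints, so a base in it may be covered in 1 library alone. Shared footprints covered 17.9% of the bases of the central windows. Of 829 CTCF matches, 781 had their centre in a shared footprint (94.2%, 95% interval 92.4 to 95.7%). All 12 NRF1 matches did so, and 21 of 30 cyclic AMP response elements (70.0%). GC boxes did so in 42.6% of 1046 matches and TTGGCA sites in 37.2% of 915. Matches of CAGCTG did so in 19.6% of 1344 (95% interval 17.6 to 21.9%), near the share of bases covered. AP-1 sites, in 10.3% of 503 matches, lay below that share, and of 33 MEF2 matches 3 lay in a shared footprint.

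The share for CACCTG rested partly on CTCF. Of its 899 matches, 371 lay in shared footprints (41.3%), but 150 of the matches overlapped a CTCF match. Apart from those, 222 of 749 lay in shared footprints (29.6%, 95% interval 26.4 to 33.1%). CTCF matches also sat close to the middle of their regions, with a median distance of 13.0 bp from the centre and 70.8% within 20 bp. For CAGCTG the median distance was 43.5 bp and 25.2% lay within 20 bp. The strongest region with a CAGCTG match in a shared footprint, printed above, had values of 10.2 in replicate 1 and 6.85 in replicate 2. It lay 2.50 kb upstream of the nearest coding transcript start of Cirbp, which encodes a cold-inducible RNA-binding protein. The Cirbp gene body begins nearer, at position 80165985, and the region ends at position 80165280. The region downstream of the Rdh8 start site printed above, with values of 12.2 in replicate 1 and 7.84 in replicate 2, has its CTCF match in a shared footprint and a CAGCTG match outside one. How the footprints were called is not given in the sources used here.

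**Figure D4:**
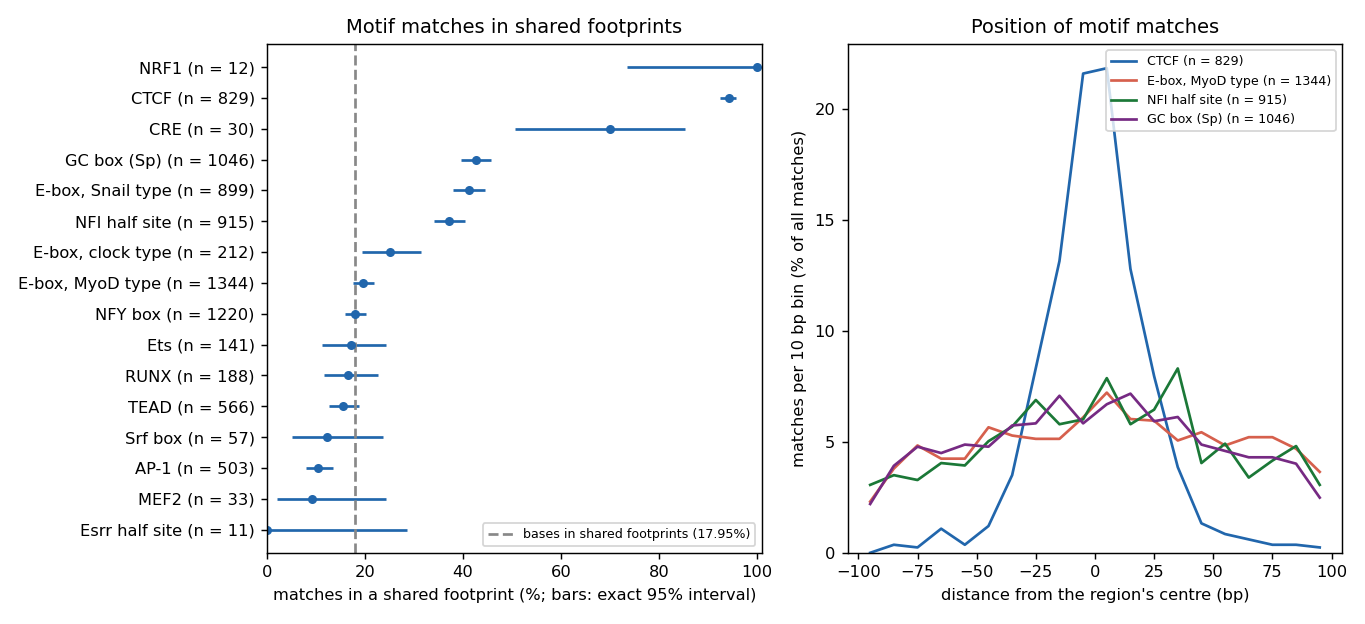
Left, share of motif matches in the central 200 bp of the intergenic regions whose centre lies in a footprint shared by both libraries, with exact 95% intervals and a dashed line at the share of bases in shared footprints. Right, position of matches relative to the region's centre in 10 bp bins; CTCF matches, 94.2% of them in shared footprints, cluster at the centre, and the other motifs drawn spread over the window.

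Regions with a CTCF motif and regions with a CAGCTG E-box ranked differently in the libraries. The 700 regions with CTCF alone had median values of 1.89 in replicate 1 and 1.75 in replicate 2, and their percentile in replicate 1 minus that in replicate 2 had a median of -8.29. The 1006 regions with CAGCTG alone had median values of 2.08 in replicate 1 and 1.44 in replicate 2, and a median difference of 2.34. With neither motif, 2991 regions had a median difference of -2.29. Regions with CTCF alone were narrower, at a median of 180 bp against 220 bp with CAGCTG alone, and held a shared footprint in 97.6% against 86.1%. The depth of the libraries is unknown, and library and animal cannot be told apart with 1 library each.

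Motif content moved with strength. Over 5 equal groups of the regions, from the weakest to the strongest, the share with a GC box was 9.44, 10.9, 13.7, 14.6 and 31.4%, and that with an Ets site was 1.66, 1.87, 2.39, 2.28 and 5.50%. The NFI site TTGGCA went the other way, at 19.4, 18.8, 16.2, 15.9 and 13.6%. CTCF showed no such order, with 15.6, 16.7, 19.2, 18.1 and 15.5%, and neither did CAGCTG, with 22.3, 22.8, 26.4, 23.6 and 21.7%. The share with a shared footprint was 71.5% in the weakest group and 99.2% in the strongest.

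The strongest regions were rich in GC and CpG. Of the 12 with the highest strength, 10 had a GC content of at least 60%, and of the 117 at or above the 90th percentile of both libraries 79 were CpG-rich (67.5%). The region downstream of the Tfap4 start site, at chr16:4541841-4542080, had values of 21.8 in replicate 1 and 13.4 in replicate 2. In the RefSeq annotation it overlaps a transcript start of Srl, which encodes sarcalumenin, a calcium-binding protein of the sarcoplasmic reticulum. An Ets match in it lies in a shared footprint. The region near Tmpo, a nuclear lamina gene, at chr10:91181681-91181960, had values of 17.2 and 10.8 in replicates 1 and 2 and overlaps a RefSeq start of Tmpo. Of the 12 strongest, 5 lay within 1 kb of a RefSeq transcript start.

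Over all 4816 regions, 429 lay within 1 kb of a RefSeq transcript start (8.91%) and 143 within 1 kb of a coding one (2.97%). Starts of transfer RNA and ribosomal RNA genes were not among those read. A RefSeq gene body, mostly of non-coding genes, overlapped 927 (19.2%), and 226 were in coding gene bodies. The 3739 regions free of both had a median strength of 48.5, against 53.0 for the rest. Other strong regions had no RefSeq start of the kinds read near them. The region upstream of Zfp395, a zinc-finger gene, at chr14:65343681-65344020, had values of 20.7 and 11.4 in replicates 1 and 2, 7 shared footprints and a GC content of 70.0%, and its nearest RefSeq start lay 14656 bp away.

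The region with the highest strength, at chr6:49236421-49236640 and named for Igf2bp3, had values of 27.3 in replicate 1 and 40.2 in replicate 2. It was made largely of sequence with other copies, since 70.0% of its 31-base words occur elsewhere on the assembled chromosomes. The region with the highest value in replicate 1, at chrX:143482981-143483140 and named for Pak3, had 46.2 in replicate 1 and 18.6 in replicate 2, with 28.5% of its words elsewhere and a GC content of 34.0%. More than 50% of the words occurred elsewhere in 56 of the 4816 regions (1.16%), against 1.57% of exonic regions, 1.05% of intergenic regions beyond 50 kb, 0.511% of intronic regions and 0.455% of promoter regions. No region held a word of the mitochondrial genome. No annotation of ribosomal DNA, satellites or problem regions was used here, so whether the values of the Igf2bp3 and Pak3 regions stand for open chromatin at these places was not tested.

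Genes with an open promoter had more open regions around them. The nearest coding gene had a promoter peak in both libraries for 3205 regions (66.6%, 95% interval 65.2 to 67.9%), against 54.2% of all coding genes. For intergenic regions beyond 50 kb this share was higher, at 2098 of 2871 (73.1%). Genes with such a promoter had 15.6 regions per Mb of their nearest intergenic sequence, and genes with no promoter peak in either library had 6.12 per Mb. Being nearest to at least 1 region was a property of 3351 of 21851 coding genes (15.3%), of which 2391 had 1 region, 653 had 2 and 307 had 3 or more. Another region lay within 5 kb of 1350 regions (28.0%) and within 20 kb of 2274 (47.2%).

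The genes with the most regions were a mixed set. Tex44, a testis gene, was nearest to 9 and its neighbour Ptma, which encodes the chromatin-associated protein prothymosin alpha, to 6. Together these regions lay on chromosome 1 between positions 86430074 and 86532640, with values of 1.15 to 16.8 in replicate 1 and 0.940 to 11.3 in replicate 2. Socs3, an inhibitor of cytokine signalling, had 7 over 32.9 kb downstream of its start, all with a shared footprint and none with a CTCF motif. Sec14l1, a lipid-transfer protein gene, had 7 over 36.6 kb, 4 of them with CAGCTG. Aurkb, a mitotic kinase gene, had 7 packed into 5.04 kb and Olfr1423, an olfactory receptor gene, had 7 in 7.10 kb. Grifin had 8, Hist1h4h 7, and Cct8l1 and Fos 6 each.

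**Figure D5:**
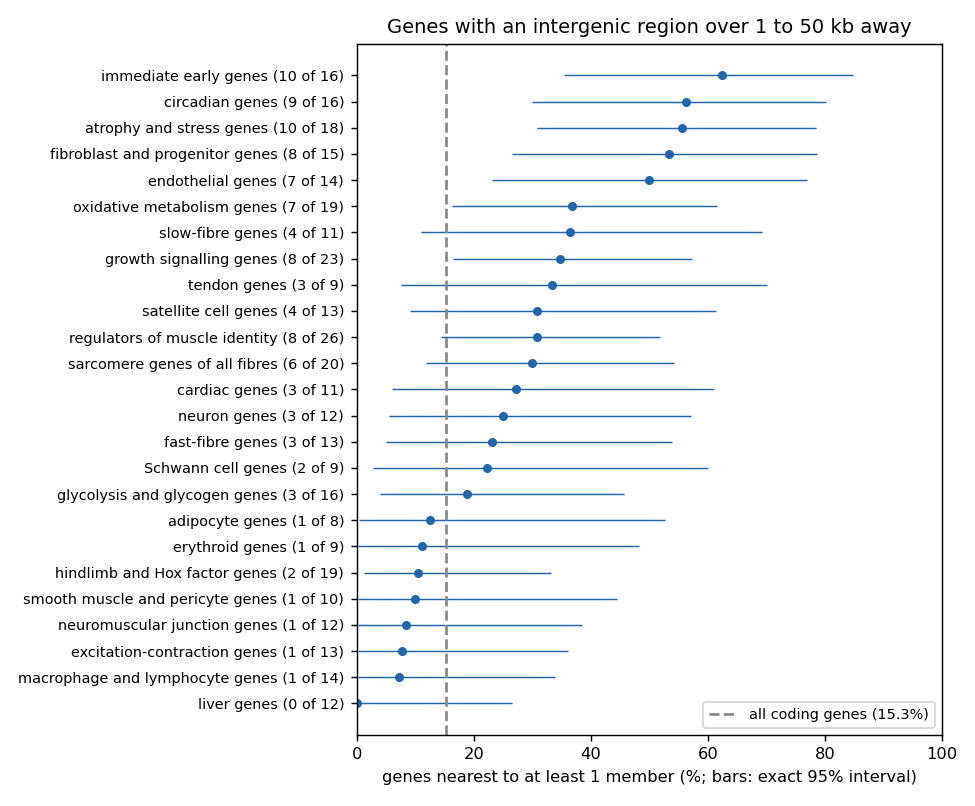
Share of the genes of each list that are the nearest coding gene of at least 1 intergenic region over 1 to 50 kb away (%), with exact 95% intervals and a dashed line at the share of all coding genes. Immediate early genes stand highest at 10 of 16 and liver genes lowest at 0 of 12.

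By the share of genes nearest to a region, genes that answer to activity, stress and the clock stood first among 25 gene lists. By density or number of regions the order differed, and slow-fibre genes, at 35.6 per Mb, stood above circadian genes. Of 16 immediate early genes, which are transcribed within minutes of a stimulus, 10 were nearest to a region, with 26 regions and a median strength of 74.6. Circadian genes had 9 of 16, with 12 regions and a median strength of 83.4, and atrophy and stress genes 10 of 18, with 18 regions. Set against available sequence, the density was 44.9 per Mb at immediate early genes, 33.3 at circadian genes and 48.3 at atrophy and stress genes, against 10.7 over all coding genes. Lists are small and overlap, Per1 being in 2 of these, and their members were not compared with other genes by a test.

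Fos, a subunit of AP-1, had 6 regions, of which 1 at 18.2 kb upstream had values of 12.7 and 7.20 in replicates 1 and 2 and held 7 shared footprints. A second, 12.1 kb downstream of its start, had values of 11.2 and 5.70 and a match to the Srf box (CArG) in a shared footprint. Ier2, another immediate early gene, had a region 1.11 kb upstream with values of 10.4 and 8.04, which is also 928 bp from the start of the non-coding gene Gm26664. Egr1, a zinc-finger factor, had its strongest region 26.2 kb downstream of its start, with values of 12.4 and 6.06. Hlf, a clock-driven bZIP factor, had 1 region, 27.1 kb upstream, with values of 13.8 and 8.08. Its printed sequence holds 3 CACGTG E-boxes, at positions 51, 132 and 144 counted from its first base, and all lay in shared footprints. Over all regions 53 of 212 CACGTG matches did so. Nr1d1, a nuclear receptor that represses clock genes, had a region 8.01 kb upstream with values of 10.3 and 6.64. The repressor gene Bhlhe41 had one 9.34 kb downstream of its start with values of 7.22 and 10.3.

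Lists of muscle structure genes gave mixed counts, beside 15.3% of all coding genes. Of 13 fast-fibre genes 3 had a region, Atp2a1, Myh2 and Myl1, with 1 each and a median strength of 38.7. Fast-fibre genes had little intergenic sequence over 1 to 50 kb, a median of 2.04 kb a gene against 12.7 kb over all coding genes, and their density was 19.8 per Mb. The Atp2a1 region, 2.55 kb upstream of this fast calcium pump gene, had values of 2.45 and 1.36 in replicates 1 and 2 and a CAGCTG match, and no shared footprint. Slow-fibre genes had 4 of 11 with 6 regions at 35.6 per Mb. The strongest of these lay 15.3 kb downstream of the start of Myl3, a slow myosin light chain gene, with values of 9.53 and 7.27 and 3 shared footprints. Sarcomere genes of all fibres had 6 of 20 with 10 regions at 30.8 per Mb, led by a region 30.97 kb downstream of the start of Tpm1, a tropomyosin gene, with values of 4.45 and 3.15. Excitation-contraction genes had 1 of 13, which was Ryr1, the calcium release channel, and neuromuscular junction genes 1 of 12, which was Chrna1, an acetylcholine receptor subunit. Their densities, 3.92 and 7.38 per Mb, were below the 10.7 of all coding genes.

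Regulators of muscle identity had 8 of 26 genes nearest to a region, beside 15.3% of all coding genes, with 20 regions at 26.5 per Mb. All 8 genes had a promoter peak in both libraries, as did 21 of the 26 listed genes and 54.2% of all coding genes. Mef2d, a MADS-box factor of muscle differentiation, had 4 regions. The strongest of these lay 35.4 kb downstream of its start, with values of 14.2 and 9.62 in replicates 1 and 2, and 156 bp from the GENCODE start of a non-coding gene, 1700113A16Rik. Another, 3.75 kb upstream, had values of 9.41 and 3.66 with a CAGCTG match, a match to the clock-type E-box and a cyclic AMP response element. Myod1, which specifies muscle, had 3 regions, at 2.63 kb downstream and at 34.6 and 36.4 kb upstream of its start. The middle one had values of 2.996 and 1.03, a CAGCTG match and 4 shared footprints. Nfix, an NFI factor of the fetal muscle programme, had 1 region 10.6 kb upstream with values of 5.21 and 6.23 and a TTGGCA match. Klf15 had 3, Lbx1 2, and Mef2a and Tead4 1 each.

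Metabolic genes varied. Oxidative metabolism genes had 7 of 19 with 10 regions at 19.0 per Mb. Glycolysis and glycogen genes had 3 of 16 (18.8%, 95% interval 4.05 to 45.6%), near the 15.3% of all coding genes, with 4 regions at 28.4 per Mb. Ppara, a nuclear receptor of fatty acid use, had 2 regions 25.1 and 25.9 kb upstream. The farther one had values of 3.69 and 3.21 in replicates 1 and 2 and its CTCF match lay in a shared footprint. Ldha, the lactate dehydrogenase of fast muscle, had 2 regions 6.56 and 7.46 kb upstream of its nearest coding transcript start. The nearer had values of 3.83 and 2.70, and the annotated gene begins closer to both. Ppargc1a, a coactivator of mitochondrial genes, had 1 region with values of 2.29 and 1.34 and a CAGCTG match. It lay 41.8 kb upstream of the nearest coding transcript start, and the annotated gene begins closer to it. Growth signalling genes had 8 of 23 at 11.9 per Mb, near that of all coding genes.

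Lists of the other cells of muscle stood on both sides of the 15.3% of all coding genes and of their 10.7 regions per Mb. Fibroblast and progenitor genes had 8 of 15 with 14 regions at 25.6 per Mb, led by a region 7.08 kb upstream of Col1a1, a collagen gene, with values of 8.51 and 3.38 in replicates 1 and 2. Endothelial genes had 7 of 14 at 15.97 per Mb, led by a region 48.4 kb upstream of Fli1 with values of 3.16 and 2.98. Satellite cell genes had 4 of 13 at 12.5 per Mb, tendon genes 3 of 9 at 22.2 and Schwann cell genes 2 of 9 at 14.9. The 3 tendon genes were Egr1, which is also on the immediate early list, Fmod and Thbs4. Smooth muscle and pericyte genes had 1 of 10 at 6.42 per Mb, adipocyte genes 1 of 8 at 4.04, erythroid genes 1 of 9 at 6.45, and macrophage and lymphocyte genes 1 of 14 at 9.84, which was Adgre1. Among genes of other tissues, liver genes had 0 of 12, neuron genes 3 of 12 at 12.05 per Mb, cardiac genes 3 of 11 at 10.8 and hindlimb and Hox factor genes 2 of 19 at 6.24. The part of cell mixture in any of these values was not tested.

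Most regions ranked alike in both animals, with exceptions in each direction. The percentiles differed by at most 20 points in 3826 of the 4816 regions (79.4%). Replicate 1 was higher by more than 20 points in 376 and replicate 2 in 614. The largest differences toward replicate 1 lay near Ptpn2, Ccng2, Hspa4 and Wdr75, where the Ccng2 region had values of 2.55 in replicate 1 and 0.585 in replicate 2. The largest toward replicate 2 lay near Gm21119, Fthl17b, Lactb and Golga7b. Every 31-base word of the Gm21119 region and 44.0% of those of the Fthl17b region occur elsewhere in the genome, whereas none of those near Lactb and Golga7b do. With 1 library an animal, no difference could be set against a spread within an animal.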

How the data were processed

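DNase-seq of 2 gastrocnemius samples, 1 library each, was used as the authors deposited it. Per the labels the assembly is mm10 (GRCm38); the aligner and the peak, q-value and footprint callers are not stated there or in the file headers. The deposited peak lists give each peak a signal value of unstated scaling; the deposited q-value runs hold q-values under 0.05, and the deposited footprint lists carry a constant score, so only positions were used. Depth in reads is unknown. Peaks of the shorter lists were merged when they overlapped by at least 1 bp and placed by GENCODE M21, with start sites of protein-coding transcripts of the basic set (41408 sites of 21851 genes) and all gene bodies. Distances ran from the region's nearest edge. Motifs were counted on both strands in the 200 bp around the centre of the overlap of both libraries' highest peaks. Shares are descriptions with exact Clopper-Pearson 95% intervals; no test across groups was possible, and regions are not replicates. RefSeq genes of GRCm38.p6 were used to look at annotation, and 31-base words of each region were counted over the assembled chromosomes. Named were the 12 strongest regions, the 10 genes with most regions, up to 4 strongest regions a list, the strongest with each motif in a shared footprint, the 4 largest percentile differences in each direction and 2 regions on each side of each distance limit; single genes of a list were otherwise named after their values were seen. Regions, lists and motifs were chosen with earlier results of these data known. Of 360 list entries 358 matched a gene. Some named regions are not reported here. Interval functions were tested on simulated data. Python 3.11.15, pandas 2.3.3 and scipy 1.17.1 were used.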

Additional observations from a re-analysis of the deposited data

How the results depend on the processing

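No paired analysis was possible because both libraries form 1 group. There were 4816 regions, with 4007 at a reciprocal overlap of at least 50%, 5102 with start sites of all transcripts of coding genes, 5809 with bodies of coding genes only, 4875 measured from the centre and 4493 with the RefSeq annotation, which was added once the data had been seen. The longer lists gave 8290, peaks no lower than their own list's median 2375, and 1 library alone 7365 to 7780. The share of replicated regions, 14.7%, was 15.8% at the reciprocal overlap, 16.01% with the longer lists, 12.2% with peaks above the median, 15.6% with all transcripts, 17.8% with coding bodies only, 13.8% with RefSeq and 15.4% for either library alone. The upstream share, 69.5%, was 62.3% with all transcripts and 67.7% with RefSeq, and 69.1 to 70.0% with 1 library. The share near an open promoter, 66.6%, was 71.3% with the longer lists, 63.6% above the median value, 69.7% with all transcripts, 69.0% with RefSeq and 68.9 to 69.5% with 1 library. The share with a shared footprint, 89.5%, was 92.9% at the reciprocal overlap, 71.9% with the longer lists, 97.3% above the median value, and 85.4 to 93.1% with 1 library and its own footprints. The CAGCTG share, 23.4%, was 20.4 to 23.9% with 1 library and stayed within its interval otherwise. Fewer or more peaks enter by construction where the list or threshold changes; the cause of the other shifts was not tested. Of the 4816 regions, 3797 stayed in the set with RefSeq, and 696 others entered. Unknown depth and scaling limit comparison of values between libraries.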

Other observations

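Beside the 4816 replicated regions, 2782 merged regions in the same kind of place held a peak of replicate 1 alone and 2521 of replicate 2 alone, so 47.6% of 10119 recurred. Recurrence was 69.8% in promoter regions, 44.9% in exonic, 39.5% in intronic and 40.8% in intergenic regions beyond 50 kb. It followed the peak value, over 5 equal groups by value, at 29.2% in the lowest group of replicate 1 and 96.2% in the highest, and at 6.88% in the lowest group of replicate 2 and 98.8% in the highest. Of the regions seen in replicate 1 alone, 1518 (54.6%) met a peak of the longer list of replicate 2. Of those seen in replicate 2 alone, 776 (30.8%) met one of the longer list of replicate 1.

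The strongest regions with rarer motifs in a shared footprint also had no place in the comparisons above. An NRF1 match lay upstream of Kcnn1, a potassium channel gene, in a region with values of 11.4 in replicate 1 and 7.98 in replicate 2 and 10 shared footprints. The 11 regions with an NRF1 match had a median strength of 81.4, against 49.3 without one. A cyclic AMP response element lay upstream of Sema3b, a secreted semaphorin gene, in a region with values of 15.2 and 8.66, and the 30 regions with this element had a median strength of 67.7, against 49.3 without. The full NFI palindrome was found in 2 regions, and both matches lay in shared footprints.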
